A study of Homo sapiens with 6 samples.

Results

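The genes described here were 10 members of the interleukin 6 (IL-6) family and its STAT3 pathway, taken from the 24462 gene symbols of the files by their names alone: the ligands IL6, LIF, IL11 and CLCF1, the receptor chains IL6ST, LIFR and OSMR, the kinase JAK1, the transcription factor STAT3 and the inhibitor SOCS3. All 10 were listed in every file, each in 1 entry. Bulk RNA was measured in 3 libraries of 1CT, immortalized human colonic epithelial progenitor cells (HCEC) labelled WT, and in 3 of 1CT-A, their version depleted of APC and labelled APC KD. Both carry the hTERT manipulation of the 1CT line, and both came from another laboratory. According to the labels, both grew without further treatment in medium with 20 ng/ml EGF, 1 μg/ml hydrocortisone (a glucocorticoid) and 2% FBS. The labelled medium also held insulin, transferrin and selenite, the same for all libraries. The labels of these libraries name no scrambled shRNA control. The APC-depleted cells were 1 line, and nothing says whether the 3 libraries of a line came from separate cultures, so the p values measure only the spread between these libraries.

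Cytokines of the IL-6 family signal through shared receptor chains. IL-6 and IL-11 first bind their own receptors, IL6R and IL11RA, and then join the signaling chain IL6ST, whereas LIF joins IL6ST with LIFR, oncostatin M joins IL6ST with OSMR or LIFR, and CLCF1 uses CNTFR together with LIFR and IL6ST. The chains activate JAK1 and other JAK kinases, these phosphorylate STAT3, and STAT3 moves to the nucleus and turns on its targets, among them SOCS3, which binds IL6ST and JAK1 and ends the signal. In the gut the pathway is known for epithelial survival and repair after injury and for its part in inflammation-driven colon tumors. The libraries measured RNA only, so STAT3 phosphorylation and cytokine secretion were not seen.

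The 1CT libraries held 7788679 to 8452258 counts and the 1CT-A libraries 11158108 to 12602988, and levels are given as CPM, a count divided by all counts of its library and multiplied by 1000000. A level of 3 counts, taken as the smallest visible one, lay between 0.355 and 0.385 CPM in 1CT and between 0.238 and 0.269 CPM in 1CT-A, a limit that covers counting error only. APC itself was at 49.3, 43.8 and 46.6 CPM in 1CT and at 31.5, 30.0 and 34.4 CPM in 1CT-A (log2 fold change -0.58, edgeR adjusted p = 1.8e-04). Of 12 colon epithelial markers, 8 had at most 5 counts in every library and EPCAM, VIL1, CDX1 and MUC2 had none, against KRT18 and CLDN7 with at least 36 counts in every library. All 10 fibroblast markers had enough counts to be tested, with a summed level between 4833 and 5864 CPM in 1CT and between 4406 and 4728 CPM in 1CT-A. The epithelial list summed to between 40.9 and 45.1 CPM in 1CT and between 23.5 and 30.2 CPM in 1CT-A. Its 3 markers with enough counts to be tested were all lower in 1CT-A. Most of the listed epithelial markers thus did not bear out the labelled cell type in either line. The 8 immune markers summed to between 12.9 and 15.5 CPM in 1CT and between 9.60 and 10.4 CPM in 1CT-A, most of it CD68, with PTPRC and CD3E at 0, and the 4 endothelial markers stayed at 0.514 CPM or less. Whether these marker levels play a part in the values below was not tested. In bulk RNA, fewer cells that express a gene cannot be told apart from less of its RNA per cell.

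In 1CT-A the receptor chains and SOCS3 were modestly higher than in 1CT, CLCF1 was lower, and LIF, IL11, JAK1 and STAT3 did not pass the test. Of the 10 members, 9 had enough counts to be tested, all but IL6. Of these 9, IL6ST, LIFR, OSMR and SOCS3 rose and CLCF1 fell at an adjusted p under 0.05 (quasi-likelihood test of edgeR, adjusted by Benjamini-Hochberg over 12514 genes). That is 5 of 9 members, where 51.0% of all tested genes passed, 25.0% as higher and 26.0% as lower in 1CT-A, so the members passed about as often as any gene. The same 5 members had no overlap between the cell lines, against 59.7% of all tested genes. The median log2 fold change of the tested members was -0.07, beside -0.01 over all tested genes, and the median size without its sign was 0.27, beside 0.36. No tested member changed 2-fold in edgeR's fit, in DESeq2 or in limma-voom, while 6, 5 and 6 members had an unadjusted p under 0.05 in these tools. At an adjusted p under 0.05, edgeR, DESeq2 and limma-voom called 6388, 5691 and 6449 of the 12514 tested genes. An unadjusted p is never larger than its adjusted p, so at least that many genes had an unadjusted p under 0.05. The exact number was not counted, and the member counts are not read as a result about the members. At the thresholds of the study, a fold change of at least 2 with an unadjusted p under 0.01, edgeR called 0 members and 13.4% of all tested genes.

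**Figure D1:**
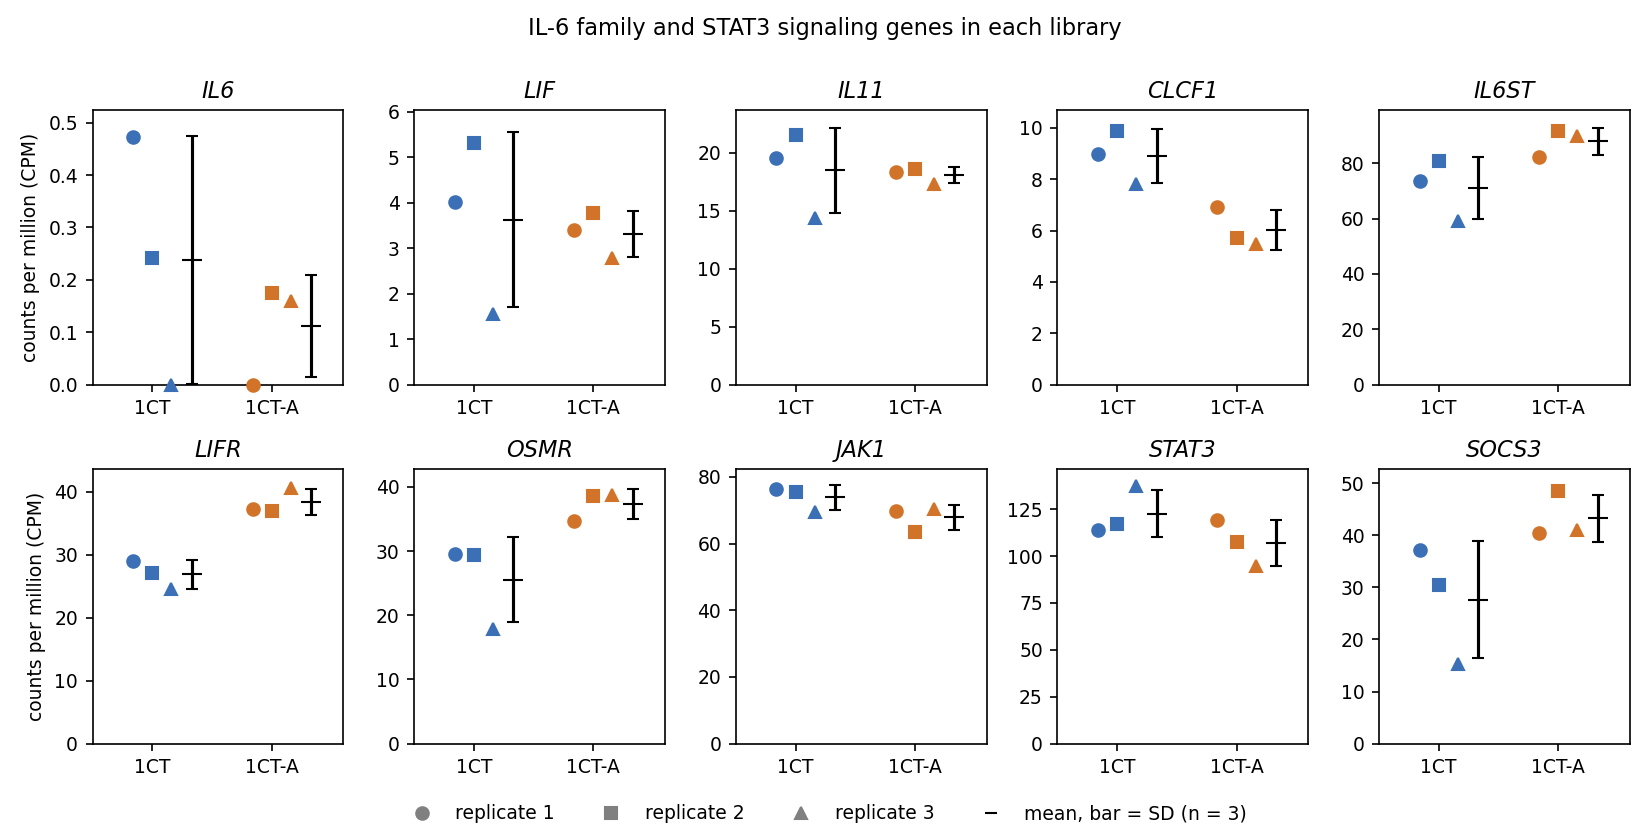
Level of the 10 genes in each library, in CPM (y axis, starting at 0 and scaled per gene), for 1CT (blue) and 1CT-A (orange), with the mean and SD of 3 libraries beside the points. The 1CT-A libraries lie above all 1CT libraries for IL6ST, LIFR, OSMR and SOCS3 and below them for CLCF1, and 1CT replicate 3 (blue triangle) is the lowest of its line for 8 of the 9 tested genes.

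Among the ligands, IL6 was at the limit of what these libraries can show. It had 4, 2 and 0 counts in 1CT and 0, 2 and 2 counts in 1CT-A, and only 1CT replicate 1 exceeded 3 counts. The lines overlapped (exact two-sided permutation test of the CPM, p = 0.5, where 0.1 is the smallest p that 3 libraries against 3 allow), and no fold change is given. A difference in IL6 RNA below about 0.385 CPM was not detectable at this depth.

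LIF, the leukemia inhibitory factor, used to keep mouse embryonic stem cells undifferentiated, was at 4.02, 5.31 and 1.54 CPM in 1CT and 3.41, 3.77 and 2.78 CPM in 1CT-A. The 1CT libraries held both the highest and the lowest value, so the 1CT-A libraries lay within their range. The log2 fold change, here always 1CT-A over 1CT, was -0.18 (standard error, SE, 0.34, edgeR adjusted p = 0.682), with a 95% interval of 0.534 to 1.46 in fold change. Changes within this interval could not be resolved.

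IL11, a cytokine that STAT3-driven gastrointestinal tumors depend on in mouse models, was at 19.5, 21.5 and 14.4 CPM in 1CT and 18.4, 18.6 and 17.3 CPM in 1CT-A. The lines overlapped fully, and the log2 fold change was -0.07 (SE 0.14, edgeR adjusted p = 0.696). Its 95% interval ran from 0.773 to 1.17 in fold change.

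CLCF1 was the only one of the 4 member ligands that passed the test. It was at 8.99, 9.90 and 7.83 CPM in 1CT and at 6.90, 5.71 and 5.47 CPM in 1CT-A, with every 1CT-A library below every 1CT library. Its log2 fold change was -0.61 (SE 0.17, edgeR adjusted p = 0.0102), a fold change of 0.657, and it kept its call in each of the 6 fits with a library left out (-0.71 to -0.52).

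Other ligands of the family in the pathway list gave little signal. OSM (oncostatin M), CNTF, IL27 and IL31 had no counts in any library, and EBI3 had at most 3. CTF1 (cardiotrophin) had 12 to 19 counts per library and did not pass the test (log2 fold change -0.61, SE 0.31, edgeR adjusted p = 0.112), nor did IL12A with 1 to 21 counts.

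The receptor chains moved the other way. IL6ST, the chain that nearly every cytokine of the family uses, was at 73.6, 80.7 and 58.9 CPM in 1CT and at 82.4, 91.5 and 89.7 CPM in 1CT-A. The lines did not overlap, but the gap between 1CT replicate 2 and 1CT-A replicate 1 was narrow. The log2 fold change was 0.27 (SE 0.10, edgeR adjusted p = 0.0417), a fold change of 1.20 with a 95% interval of 1.03 to 1.40. This was the weakest of the calls: it was lost in 4 of the 6 fits with a library left out, those without 1CT replicate 1, 1CT replicate 3, 1CT-A replicate 2 or 1CT-A replicate 3 (log2 fold change 0.29, 0.17, 0.25 and 0.26).

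LIFR, the chain that LIF, CLCF1 and oncostatin M share, was at 29.1, 27.2 and 24.5 CPM in 1CT and at 37.4, 37.0 and 40.7 CPM in 1CT-A. The libraries of each line lay close together and the lines were well separated. Its log2 fold change was 0.47 (SE 0.10, edgeR adjusted p = 0.0012), a fold change of 1.39, and between 0.43 and 0.53 over the fits that left out a library. LIFR was the 1 member that also passed an adjusted p of 0.01, a cutoff that 4671 of the 12514 tested genes passed.

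OSMR, the second chain of the oncostatin M receptor, was at 29.5, 29.3 and 17.8 CPM in 1CT and at 34.7, 38.5 and 38.7 CPM in 1CT-A. All 1CT-A libraries were higher, and 1CT replicate 3 lay far below the other libraries of its line. The log2 fold change was 0.51 (SE 0.15, edgeR adjusted p = 0.0115), and 0.32 without 1CT replicate 3, with an adjusted p of 0.00921 in a range of 6.7e-06 to 0.0397 over all alternatives. The call did not depend on that library, whereas the size of the change did.

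Of the receptor genes, the windows of LIFR and OSMR that held a motif are shown, chosen for their matches, and that of IL6 because NF-κB and C/EBP factors are known to act on it while its RNA was near 0. RefSeq (GRCh38.p14) gave at least 1 transcript start for 8 members and 13 starts in all, and the 250 bases before each start were searched on both strands for TTCNNNGAA (STAT factors), TGANTCA (AP-1), TTGCNNAA (C/EBP) and for the NF-κB motif. Capitals mark the matches, which did not overlap each other, and each sequence is written 5′ to 3′ on the strand of its gene. The LIFR windows shown, 2 of its 3, are chr5:38595406-38595655 and chr5:38557468-38557717 on the minus strand, the OSMR window is chr5:38845762-38846011 on the plus strand, and the IL6 window is chr7:22726950-22727199 on the plus strand.
LIFR start 1: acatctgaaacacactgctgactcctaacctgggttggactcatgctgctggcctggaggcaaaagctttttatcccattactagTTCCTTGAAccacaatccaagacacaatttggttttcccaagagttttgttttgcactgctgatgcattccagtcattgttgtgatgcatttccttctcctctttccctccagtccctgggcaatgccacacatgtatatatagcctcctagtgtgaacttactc
LIFR start 2: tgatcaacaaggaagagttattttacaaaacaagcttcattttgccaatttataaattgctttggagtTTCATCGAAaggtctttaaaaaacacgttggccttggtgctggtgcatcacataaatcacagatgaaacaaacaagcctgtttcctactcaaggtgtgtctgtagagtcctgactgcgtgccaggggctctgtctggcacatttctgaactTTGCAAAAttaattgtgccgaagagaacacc
OSMR: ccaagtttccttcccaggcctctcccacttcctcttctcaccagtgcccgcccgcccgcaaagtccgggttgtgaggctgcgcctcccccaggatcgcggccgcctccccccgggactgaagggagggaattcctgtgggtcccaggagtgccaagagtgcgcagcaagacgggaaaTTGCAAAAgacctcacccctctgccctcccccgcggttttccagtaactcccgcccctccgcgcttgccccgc
IL6: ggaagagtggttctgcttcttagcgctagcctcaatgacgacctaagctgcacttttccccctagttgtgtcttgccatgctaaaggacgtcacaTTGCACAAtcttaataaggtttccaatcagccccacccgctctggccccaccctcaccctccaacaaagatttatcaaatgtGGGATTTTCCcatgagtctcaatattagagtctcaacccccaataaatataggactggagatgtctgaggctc

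TTCNNNGAA was found 165 to 157 bases before the first LIFR start and 182 to 174 bases before the second, and in no window of another member. TTGCNNAA was found before the second LIFR start, before OSMR and before IL6, TGANTCA before IL11, and the NF-κB motif 73 to 64 bases before IL6. Over all 35116 promoter windows of this length, 6.57% held TTCNNNGAA, 6.57% TGANTCA, 9.05% TTGCNNAA and 0.527% the NF-κB motif. In 8 of the 13 windows, among them the third LIFR window and those of IL6ST, STAT3 and SOCS3, none of these motifs was found. Reads at the 3′ end do not tell which start of LIFR was used, and a match is only a match of letters.

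IL6R and IL11RA, the receptors that IL-6 and IL-11 bind first, fell while IL6ST, LIFR and OSMR rose. IL6R, which IL-6 binds first, was at 26.9, 27.0 and 25.3 CPM in 1CT and at 15.8, 17.2 and 15.9 CPM in 1CT-A, a log2 fold change of -0.74 (SE 0.10, edgeR adjusted p = 6.7e-05). IL11RA, the receptor for IL-11, fell from a mean of 33.4 ± 1.81 to 25.9 ± 2.71 CPM (± SD of 3 libraries) with a log2 fold change of -0.41 (SE 0.10, edgeR adjusted p = 0.00473). For both genes every 1CT-A library was below every 1CT library.

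IL27RA, which pairs with IL6ST for interleukin 27 and was named after its values were seen, had a log2 fold change of -1.05 (edgeR adjusted p = 1.7e-04). ADAM10, a protease that releases the outer part of IL6R and other proteins from the membrane, rose from a mean of 39.6 ± 7.19 to 63.1 ± 1.86 CPM (± SD of 3 libraries) with a log2 fold change of 0.63 (edgeR adjusted p = 3.8e-04). ADAM17, the other sheddase in the list, did not pass (log2 fold change 0.11, edgeR adjusted p = 0.47). CNTFR, the receptor part that CLCF1 needs, had at most 1 count in a library, and IL31RA had 0 to 17 counts and was not tested.

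The kinase and the transcription factor at the center of the pathway did not pass the test. JAK1 was at 76.4, 75.6 and 69.6 CPM in 1CT and at 69.6, 63.5 and 70.5 CPM in 1CT-A. The lines overlapped, with a log2 fold change of -0.16 (SE 0.08, edgeR adjusted p = 0.115) and a 95% interval of 0.792 to 1.01 in fold change.

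STAT3 was at 114, 117 and 137 CPM in 1CT and at 119, 107 and 94.7 CPM in 1CT-A. Here 1CT replicate 3 was the highest library and not the lowest, and 1CT-A replicate 1 lay among the 1CT libraries. The log2 fold change was -0.24 (SE 0.10, edgeR adjusted p = 0.0691), with a 95% interval of 0.729 to 0.989 in fold change before adjustment. STAT3 became a call only without 1CT-A replicate 1 (log2 fold change -0.32, edgeR adjusted p = 0.0296, in a range of 0.0296 to 0.308 over all alternatives).

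**Figure D2:**
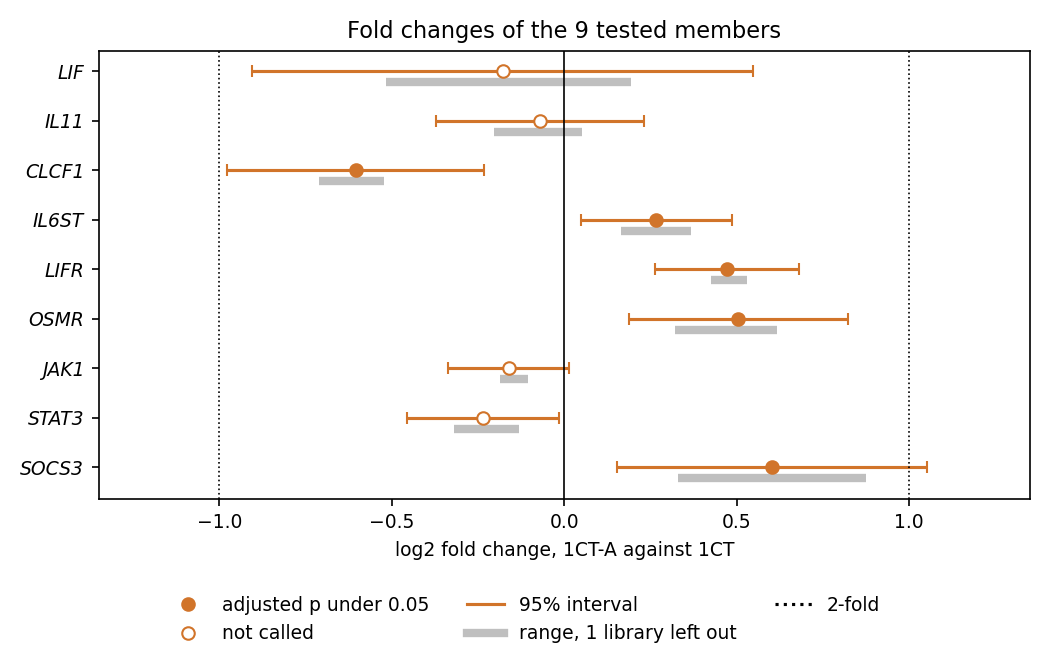
Log2 fold change, 1CT-A over 1CT (x axis), for the 9 tested members, with 95% intervals, filled points for an adjusted p under 0.05 and grey bars for the range with 1 library left out in turn. IL6ST, LIFR, OSMR and SOCS3 lie right of 0, CLCF1 lies left of 0, no point reaches the dotted 2-fold lines, and the SOCS3 bar spans 0.33 to 0.87.

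Other kinases and STAT factors of the list went both ways. STAT6, the factor of IL-4 signaling, fell from a mean of 93.9 ± 4.23 to 76.9 ± 4.43 CPM (± SD of 3 libraries) with a log2 fold change of -0.33 (edgeR adjusted p = 0.00384). The neighboring genes of the STAT5 pair differed in sign, since STAT5B rose (9.93 ± 2.18 to 14.0 ± 1.16 CPM, SD, n = 3, log2 fold change 0.45, edgeR adjusted p = 0.0317) and STAT5A, named after its values were seen, fell (log2 fold change -1.45, edgeR adjusted p = 7.8e-05). The STAT5B call was lost without 1CT replicate 2, 1CT replicate 3, 1CT-A replicate 1 or 1CT-A replicate 2, and with DESeq2 (DESeq2 adjusted p = 0.0534, in a range of 0.00601 to 0.107 over all alternatives). JAK2 and TYK2, which act beside JAK1 at these receptors, had log2 fold changes of 0.13 and -0.21 and did not pass.

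SOCS3, the feedback inhibitor and a direct STAT3 target, was at 37.1, 30.4 and 15.3 CPM in 1CT and at 40.3, 48.4 and 40.9 CPM in 1CT-A. Every 1CT-A library was higher than every 1CT library, and 1CT replicate 3 lay far below the rest of its line. The log2 fold change was 0.60 (SE 0.21, edgeR adjusted p = 0.0277), the largest rise among the tested members with all libraries, with a 95% interval of 1.11 to 2.07 in fold change. Without 1CT replicate 3 it was 0.33 (edgeR adjusted p = 0.0159), below the 0.43 of LIFR in that fit. The call was lost without 1CT-A replicate 2 (log2 fold change 0.52, edgeR adjusted p = 0.102) and with DESeq2 (0.61, DESeq2 adjusted p = 0.159), in a range of 3.0e-08 to 0.159 over all alternatives.

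Other inhibitors and adaptors of the pathway went both ways, with 4 higher, 3 lower and 8 not called among the 15 tested of 17. That is 46.7% called, beside 51.0% of all tested genes, of which 25.0% were higher and 26.0% lower. SOCS1, a close relative of SOCS3 that blocks JAK kinases, had a log2 fold change of 1.95 (SE 0.30, edgeR adjusted p = 1.3e-04), from 0.71, 2.05 and 1.54 CPM in 1CT to 5.11, 5.79 and 6.19 CPM in 1CT-A. SOCS2, which restrains growth hormone signaling, had one of -1.33 (SE 0.20, edgeR adjusted p = 1.4e-04). Both were named after their values were seen. SOCS6 rose from 10.7 ± 1.25 to 15.2 ± 2.14 CPM (± SD, n = 3, log2 fold change 0.47, edgeR adjusted p = 0.0195), a call lost without 1CT replicate 2 or 1CT-A replicate 3.

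The SUMO ligases that bind STAT factors split as well. PIAS4 rose (20.9 ± 2.62 to 31.2 ± 2.82 CPM, SD, n = 3, log2 fold change 0.54, edgeR adjusted p = 0.00149), and PIAS3, which binds STAT3, fell (52.4 ± 5.66 to 40.4 ± 1.70 CPM, SD, n = 3, log2 fold change -0.41, edgeR adjusted p = 0.00324). PTPN2, a phosphatase that removes phosphate from STAT and JAK proteins, rose by a log2 fold change of 0.31 (edgeR adjusted p = 0.0283), a call lost without 1CT replicate 3, 1CT-A replicate 2 or 1CT-A replicate 3. Over the whole pathway list, 30 of 41 genes were tested and 16 were called, 6 higher and 10 lower, which is 53.3% beside 51.0% of all tested genes, with a median log2 fold change of -0.14.

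**Figure D3:**
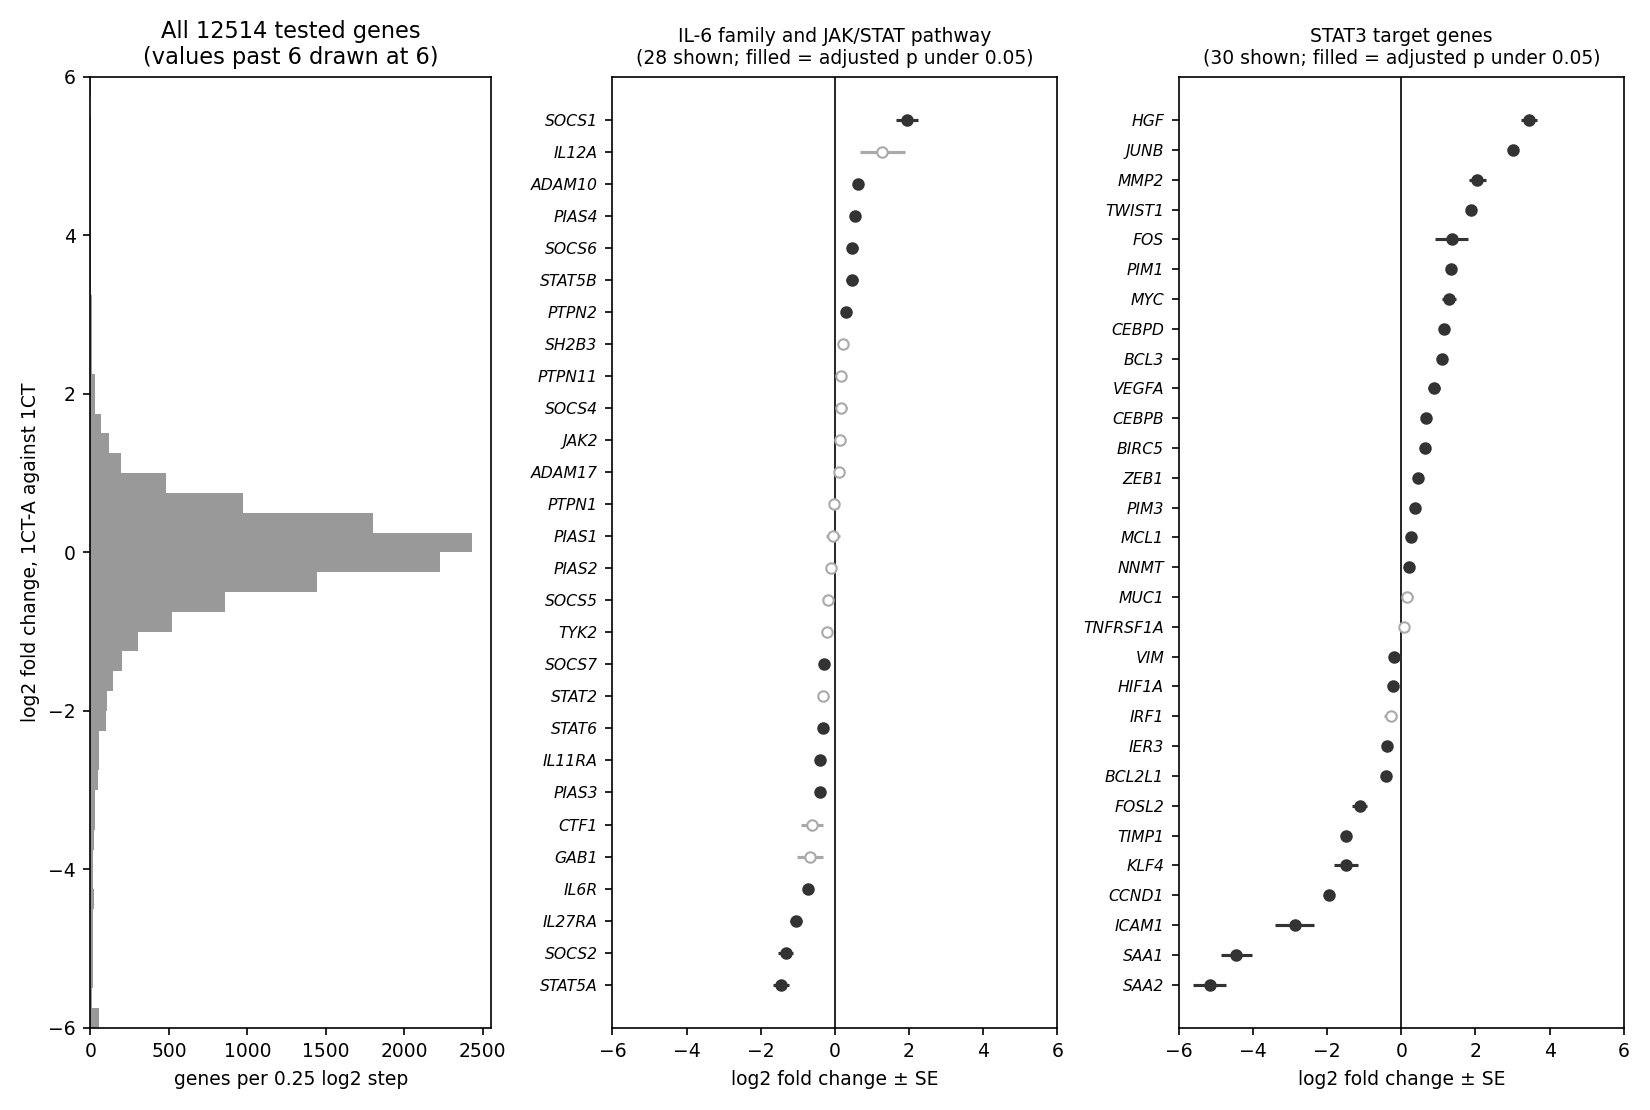
Log2 fold changes, 1CT-A over 1CT, for all tested genes (left, number of genes per step of 0.25, with values past 6 drawn at 6), for 28 pathway genes (middle) and for the 30 tested STAT3 target genes (right), with standard errors and filled points for an adjusted p under 0.05. The pathway genes drawn run from -1.45 (STAT5A) to 1.95 (SOCS1) and the target genes from SAA2, which had 1 count in each 1CT-A library so that its fitted value depends on the prior count, to 3.44 (HGF).

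Genes commonly listed as STAT3 targets differed widely and in both directions. Of 45 listed, 30 were tested, and 16 rose, 11 fell and 3 did not pass, 90.0% in all. The share of calls was 51.0% over all tested genes and 54.9% over those that averaged 10 CPM or more, and the median log2 fold change of the list was 0.24. Many of these genes also answer to other pathways, several were known to differ before the list was made, and the list says nothing particular to STAT3.

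Of the rises, HGF (hepatocyte growth factor, log2 fold change 3.44), JUNB (an AP-1 factor, 3.01), MMP2 (a collagenase of basement membranes, 2.06), TWIST1 (a mesenchymal transcription factor, 1.87) and PIM1 (a survival kinase, 1.34) were the largest under the rule for named genes, with edgeR adjusted p values from 1.5e-09 to 1.0e-05. PIM1 was at 12.5, 14.5 and 10.3 CPM in 1CT and at 36.7, 32.9 and 27.7 CPM in 1CT-A, with no overlap. BCL3, an NF-κB cofactor induced by STAT3, rose from 49.4 ± 2.21 to 108 ± 1.18 CPM (± SD, n = 3, log2 fold change 1.10, edgeR adjusted p = 1.7e-07). The IL-6 responsive factors CEBPB and CEBPD, whose products bind C/EBP sites, had log2 fold changes of 0.65 and 1.15 (edgeR adjusted p = 3.6e-05 and 2.5e-06). These last 3 genes were named after their values were seen.

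Of the falls under that rule, SAA1, an acute phase protein that IL-6 and IL-1 induce together, was the largest. It was at 37.1, 46.6 and 35.7 CPM in 1CT and at 0.269, 4.65 and 0.714 CPM in 1CT-A, so that 1CT-A replicate 2 stood above the other libraries of its line. The log2 fold change was -4.45 (SE 0.42, edgeR adjusted p = 2.0e-06), and it reached -6.30 without 1CT-A replicate 2. SAA2, a near-identical copy named after its values were seen, had 28, 32 and 24 counts in 1CT and 1 count in each 1CT-A library, and reads of SAA1 and SAA2 may have been assigned to either gene.

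CCND1 (cyclin D1) had a log2 fold change of -1.96 and TIMP1, an inhibitor of metalloproteinases that IL-6 family cytokines induce, one of -1.48 (edgeR adjusted p = 2.6e-09 and 2.6e-08). BCL2L1, which blocks apoptosis, fell from 76.6 ± 11.2 to 59.1 ± 1.15 CPM (± SD, n = 3, log2 fold change -0.41, edgeR adjusted p = 0.00347), and IER3, an early response gene, from 479 ± 52.8 to 377 ± 28.9 CPM (± SD, n = 3, log2 fold change -0.38, edgeR adjusted p = 0.00317). The liver acute phase genes FGA, FGB, FGG, CRP and LBP had at most 2 counts in a library.

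1CT replicate 3 stood apart in the members. 1CT replicate 3 was the lowest 1CT library for 8 of the 9 tested members, all but STAT3. Over the 8224 genes that averaged 10 CPM or more it was the lowest for 41.6% and the highest for 38.0%. Against the mean of the other 1CT libraries it was at 0.33 times for LIF, 0.452 times for SOCS3, 0.607 times for OSMR, 0.701 times for IL11 and 0.764 times for IL6ST, and at 1.19 times for STAT3. Its mean correlation with the other 1CT libraries was 0.984 over these genes, and that of the other 1CT libraries was 0.988. Without it, the log2 fold changes of LIF and IL11 were -0.52 and -0.20, neither of which passed (edgeR adjusted p = 0.111 and 0.164, in ranges of 0.111 to 0.927 and 0.164 to 0.902 over all alternatives), and IL6ST, LIFR, OSMR and SOCS3 stayed higher in 1CT-A with 0.17, 0.43, 0.32 and 0.33, IL6ST without a call. What set this library apart was not tested.

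**Figure D4:**
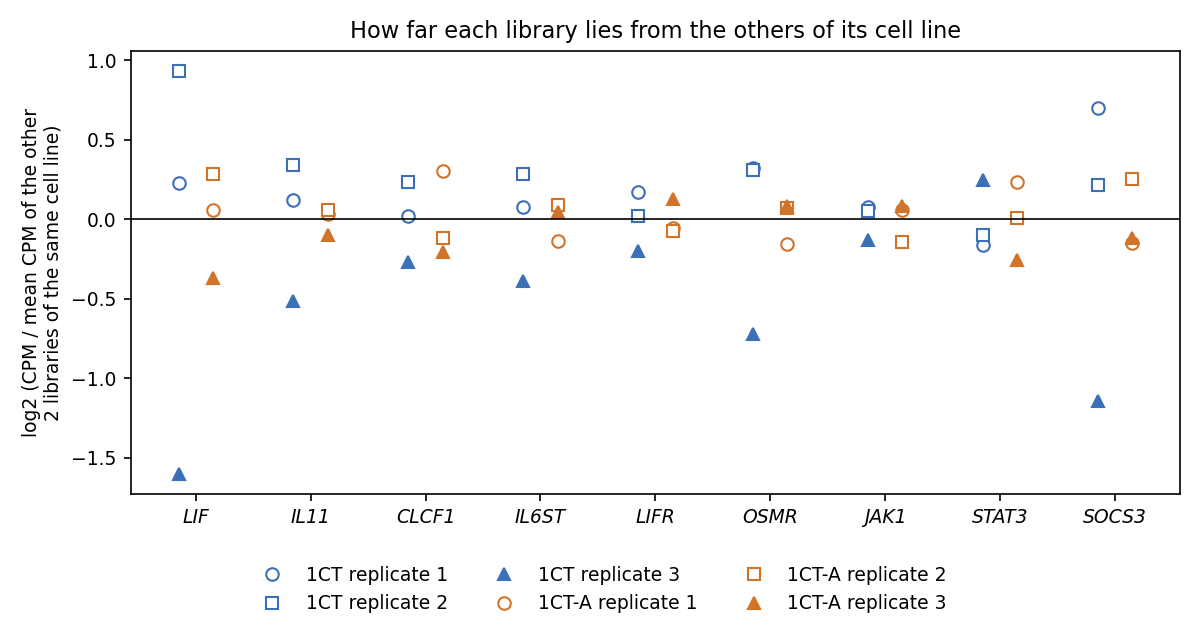
Log2 ratio of each library's CPM to the mean of the other libraries of its cell line (y axis) for the 9 tested members, 1CT in blue and 1CT-A in orange, with filled triangles for replicate 3. The filled blue triangles lie below 0 for 8 members, lowest for LIF (-1.60) and SOCS3 (-1.15), and above 0 for STAT3 (0.25).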

How the data were processed

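The authors deposited 1 file of raw counts per library, whole numbers of reads per gene symbol that were neither normalized nor pooled. Per the labels, 500 ng of total RNA entered each QuantSeq 3′ library, and the submitters' processing notes name Bowtie2, edgeR and hg19. The counting tool, annotation and strand setting are not given in the sources used here, so reads of OSMR and RICTOR, of JAK1 and RAVER2 and of LIFR and LIFR-AS1, which overlap in RefSeq, cannot be told apart where they overlap. Each file held 25737 entries, and repeated symbols were summed.

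Levels are CPM of each file's total. 1CT-A was compared with 1CT by edgeR 4.0.16 (R 4.3.3): TMM (factors 0.976 to 1.02), filterByExpr (minimum count 10), glmQLFit and glmQLFTest with no block, and p values adjusted by Benjamini-Hochberg for 12514 genes. The fit was also run on simulated counts, with the same dispersion for every gene and known changes in a small part of them. That setting is simpler than these data, so the run does not show how well the fit does here. Replicates differed beyond counting noise (chi-square per degree of freedom 3.11 to 9.00). Alternatives were other scalings, filters and thresholds, DESeq2 1.42.0, limma-voom (limma 3.58.1), a replicate block and each library left out.

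The members and lists were chosen with earlier results of these data known. Named genes were the members and, from the pathway and STAT3 target lists, the 5 highest and the 5 lowest log2 fold changes of genes that averaged 10 CPM or more, did not overlap between the lines and had an adjusted p under 0.05. Some genes that this rule or the lists hold are not reported here.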

Additional observations from a re-analysis of the deposited data

How the results depend on the processing

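Another scaling, limma-voom, no filter and the replicate block left all 5 calls among the members in place, and the 9 tested members kept their direction in all 63 values from fits other than those with a library left out, with 2 calls lost, SOCS3 with DESeq2 and IL6ST with at least 10 counts in every library (log2 fold change 0.25, edgeR adjusted p = 0.0557, in a range of 0.00307 to 0.121 over all alternatives). With each library left out in turn, 3 to 6 members, 14 to 17 pathway genes, 24 to 26 target genes and 5364 to 6551 genes in all were called, the 3 members without 1CT-A replicate 2. Without 1CT replicate 2 the log2 fold changes of LIF and IL11, neither of them called, turned to 0.19 and 0.051, and over all libraries left out they ranged from -0.52 to 0.19 and from -0.20 to 0.05. An adjusted p under 0.01 left 1 of the 9 tested members and 4671 of the 12514 tested genes. The fold change and p thresholds of the study, applied here to edgeR's p, left 0 members, 5 pathway genes, 16 target genes and 1676 genes in all. The labels do not say whether the library numbers 1 to 3 mark pairs. With each gene centred within its line, same-numbered libraries correlated at -0.0268 on average (from -0.161 to 0.22). Unlike-numbered libraries ran from -0.290 to 0.345, and 3 libraries per line cannot decide whether the numbers mark pairs. The replicate block gave 5 members, 15 pathway genes, 27 target genes and 6091 genes in all. Depth left IL6, with at most 4 counts in a library, untested.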

Other observations

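LIFR and OSMR lie close to each other on chromosome 5, which also holds IL6ST. Some genes of the region around them were looked up after the values were seen, a chosen set and not every gene there. RICTOR, a subunit of a kinase complex that overlaps the end of OSMR, had a log2 fold change of 0.07 (SE 0.16, edgeR adjusted p = 0.738). On the same side DAB2, an endocytic adaptor, and PTGER4, a prostaglandin receptor, fell (-1.37 and -1.70, edgeR adjusted p = 1.6e-08 and 2.4e-06). On the other side EGFLAM had at most 3 counts, WDR70 had a log2 fold change of -0.03 (edgeR adjusted p = 0.85), and NUP155, a nuclear pore protein, rose (0.71, edgeR adjusted p = 0.00425). Of the 565 tested genes placed on chromosome 5, 23.0% were higher in 1CT-A, beside 25.2% of the 12349 genes placed on any chromosome.

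SOCS3 had the largest rise among the members with all libraries, whereas without 1CT replicate 3 LIFR had a larger one (log2 fold change 0.43 against 0.33). The genes whose log2(CPM + 1) over the 6 libraries was most like its own, among 8223 others that averaged 10 CPM or more, were C18orf8, ZNRF1 and LINC00998 (Pearson r of 0.997, 0.997 and 0.996), a description of 6 libraries that fall into 2 cell lines. No member that fell had a mean of 10 CPM, so none was matched in this way.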
